A study of Mus musculus with 12 samples.

Results

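MGP_C57BL6NJ_G0034601 is an abundant mouse gene whose mean level in knockout liver was higher on a high-fat diet than on a normal diet, while wild-type liver showed no such difference. It is 1 of 42554 rows in the count table of this liver study and 1 of the 13843 genes with enough counts to be tested. It was picked from these same 12 libraries for that pattern and for its abundance. Its levels and differences are therefore given as a description, with standard deviations and standard errors but without tests. The table gives this gene an identifier of the C57BL/6NJ strain annotation and no symbol, and 0 of the identifiers in the table matched the gene tables used here. Its symbol, position, protein and sequence are therefore not given.

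The study profiled bulk liver RNA from wild-type mice (WT) and from NLRP6 knockout mice (KO), each on a normal diet (ND) or a high-fat diet (HFD). All mice ate the normal diet until 8 weeks of age, after which the HFD mice received the high-fat diet for 12 weeks and the ND mice stayed on normal food. There were 3 libraries in each of the 4 groups, named by genotype and diet (for example, KO HFD). The stated purpose concerned the part NLRP6 plays in the build-up of fat droplets in hepatocytes. How the knockout allele was made, the sex of the mice and whether each library came from a separate animal are not given in the sources used here.

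NLRP6 is a member of the NOD-like receptor family, a group of intracellular sensors of microbial and damage signals. It can assemble with the adaptor ASC and caspase-1 into an inflammasome, the complex that matures interleukin-1β and interleukin-18, and it is best known from the epithelium of the intestine. The liver takes up and makes fatty acids, and on a prolonged high-fat diet hepatocytes store the surplus as triglyceride droplets, with broad changes in the genes of lipid, bile acid and drug metabolism. Hepatocytes supply most of the RNA of a whole-liver sample. In such bulk samples, fewer cells of a type and less RNA per cell cannot be told apart.

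Total counts ran from 13339879 to 15933886 per library. The knockout label was followed by MGP_C57BL6NJ_G0033694, which had 2019 to 2981 counts in each WT library and 0 in each KO library, where a count of 0 allows up to 3. No other gene was absent from all KO libraries while having 5 counts or more in each WT library. KO HFD replicate 1 stood apart from the other KO HFD libraries: across 7917 genes that averaged 10 CPM or more (CPM being reads of a gene scaled to a common library size), its mean correlation with the other two was 0.939, against 0.951 to 0.985 for the other 11 libraries and their group mates. These correlations are across genes, which are not independent replicates. The KO HFD levels are therefore given by library.

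In WT liver on the normal diet, MGP_C57BL6NJ_G0034601 had 67964, 99256 and 121997 counts in replicates 1, 2 and 3. Scaled with trimmed mean of M-values factors, which correct for library composition, these were 4192, 6159 and 7990 CPM. The WT ND libraries were thus spread over a wide range, with a mean of 6114 ± 1900 CPM (SD, n = 3). In WT liver on HFD the counts were 62180, 64628 and 61976, equal to 5090, 4943 and 5014 CPM. These 3 libraries were almost identical, with a mean of 5016 ± 73.3 CPM (SD, n = 3), and all of them lay inside the range of the WT ND libraries. Scaled by total counts alone, WT HFD replicate 2 was just below the lowest WT ND library, at 4440 against 4496 CPM.

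In KO liver on the normal diet the counts were 54153, 40734 and 49910, equal to 3174, 2664 and 3040 CPM. The mean was 2959 ± 264 CPM (SD, n = 3), and all 3 KO ND libraries were below each of the other 9 libraries. In KO liver on HFD the counts were 61228, 277630 and 243045 in replicates 1, 2 and 3, equal to 5166, 20917 and 17431 CPM. Replicates 2 and 3 were far above every other library, and replicate 1 was not. The KO HFD mean of 14505 CPM had an SD of 8273 (n = 3).

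**Figure D1:**
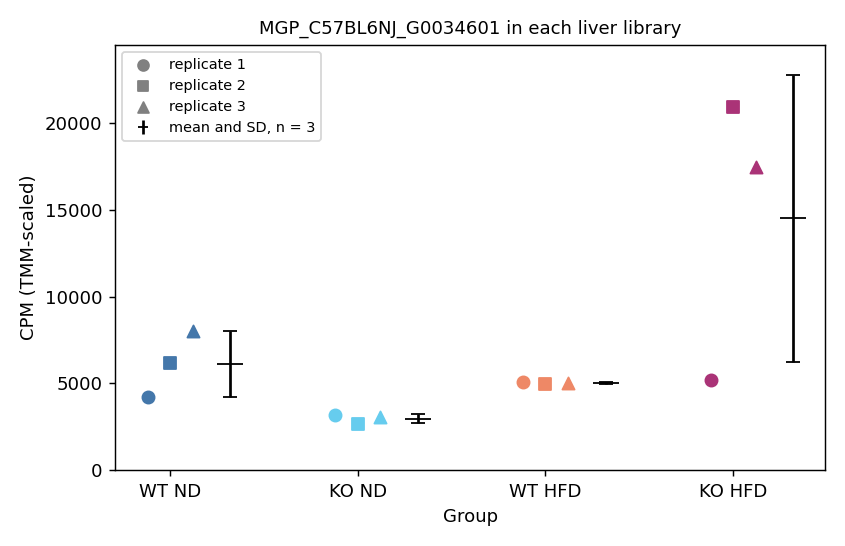
Level of MGP_C57BL6NJ_G0034601 in CPM (vertical axis) in the 3 libraries of each group (horizontal axis), with marker shapes for replicate numbers and the group mean and SD in black. KO HFD replicates 2 and 3 lie at 20917 and 17431 CPM, while KO HFD replicate 1, at 5166 CPM, lies at the level of the WT HFD libraries.

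Ordered by mean, KO ND was lowest, followed by WT HFD, WT ND and KO HFD. KO ND and WT HFD did not overlap and differed 1.69-fold, by more than the SD of either group. WT HFD and WT ND overlapped, and their 1.22-fold difference was within the SD of WT ND. WT ND and KO HFD overlapped as well, because KO HFD replicate 1 lay between the lowest and the middle WT ND library. Their means differed 2.37-fold, about as much as the SD of KO HFD.

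KO HFD replicate 1 was the library at which KO HFD overlapped WT ND and came close to WT HFD. Its level was 1.03 times the WT HFD mean, 1.75 times the KO ND mean and 1.63 times the highest KO ND library. Replicates 2 and 3 were 4.17 and 3.48 times the WT HFD mean, and 7.07 and 5.89 times the KO ND mean. Both also exceeded the highest library outside KO HFD, WT ND replicate 3, by 2.62-fold and 2.18-fold. KO HFD and WT HFD did not overlap, but the gap between the highest WT HFD library and KO HFD replicate 1 was only 5090 against 5166 CPM. Without replicate 1 the KO HFD mean was 19174 ± 2465 CPM (SD, n = 2). Without replicate 2 it was 11299 ± 8673 CPM, and without replicate 3 it was 13042 ± 11138 CPM (SD, n = 2 each).

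As a share of all counts in the library, this gene took 0.449%, 0.695% and 0.867% in WT ND and 0.340%, 0.286% and 0.335% in KO ND. It took 0.452%, 0.444% and 0.452% in WT HFD. In KO HFD it took 0.459% in replicate 1, with a 95% Wilson interval from 0.455% to 0.463%, 2.06% in replicate 2 (2.06% to 2.07%) and 1.65% in replicate 3 (1.65% to 1.66%). The intervals cover counting error only. In KO HFD replicates 2 and 3 the gene was therefore the 3rd most abundant row of the whole library, against rank 20 in KO HFD replicate 1. Its rank was 21 to 25 in WT HFD, 28 to 31 in KO ND and 9 to 23 in WT ND. Counting error was at most 0.495% of the count in any library, so depth did not limit the comparison of these values.

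The fitted differences give the same picture on the log2 scale. In KO, the level on HFD minus that on ND was 2.29 (SE 0.41), which is 4.90-fold. In WT the same difference was -0.29 (SE 0.39), smaller than its standard error. That SE comes from a fit over all 4 groups, which includes the wide KO HFD spread. Fitted on the WT groups alone, the WT difference was -0.28 (SE 0.21), larger than its standard error. The diet difference in KO exceeded that in WT by 2.58 (SE 0.56). Between genotypes, KO minus WT was 1.53 (SE 0.40) on HFD and -1.05 (SE 0.39) on ND. The gene was thus lower in KO than in WT on the normal diet, by 2.07-fold in the group means, and higher in KO than in WT on HFD, by 2.89-fold. These 5 differences share libraries: the diet difference between genotypes contains the ND difference, and the low KO ND level enters both. Their standard errors also depend on the groups fitted. With only the groups compared, the SE was 0.22 for KO minus WT on ND and 0.45 on HFD. For the KO diet difference it was 0.46.

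Leaving out KO HFD replicate 1 gave a KO diet difference of 2.70 (SE 0.21) and a KO minus WT difference on HFD of 1.94 (SE 0.21). Leaving out KO HFD replicate 2 gave 1.92 (SE 0.40) and 1.17 (SE 0.39), and leaving out replicate 3 gave 2.14 (SE 0.44) and 1.38 (SE 0.44). The small WT diet difference depended on single WT ND libraries: it was -0.05 without WT ND replicate 3 and -0.50 without WT ND replicate 1. With libraries scaled by total counts alone it was -0.58, but that scaling moved the median of all genes in this comparison by -0.29. Relative to that median the gene was at -0.26 under either scaling.

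Read against the whole table, the diet difference in KO was among the highest and that in WT was not. Of the 13843 genes tested, 170 (1.23%) had a diet difference in KO at least as high. Among 1464 genes that averaged 100 CPM or more there were 11 such genes, and among the 116 that averaged 1000 CPM or more there were 3. In WT, 63.6% of all genes had a diet difference at least as high. On the normal diet, 3.36% of genes were at least as low in KO relative to WT. Leaving out KO HFD replicate 1, 2 or 3 gave 105, 378 and 244 genes with a diet difference in KO at least as high. These were 0.740%, 2.66% and 1.72% of the 14197, 14222 and 14208 genes then tested. Of them, 6, 25 and 13 averaged 100 CPM or more. The gene was chosen for its KO and WT diet differences and its abundance in these libraries, so all of these places describe the choice and are no finding.

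**Figure D2:**
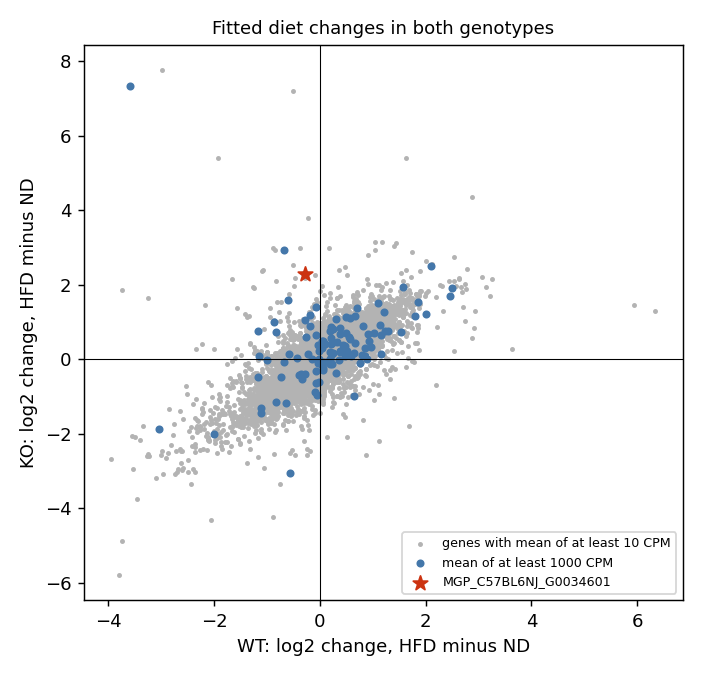
Fitted log2 difference between HFD and ND in WT (horizontal axis) and in KO (vertical axis) for genes averaging 10 CPM or more, with those of 1000 CPM or more in blue. MGP_C57BL6NJ_G0034601 (star) is at -0.29 in WT and 2.29 in KO, above the diagonal band of most genes.

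Averaged over all 12 libraries the gene had 7148 CPM and ranked 13th among the genes tested. A further 23 genes had a mean within 2-fold of it, from 3939 to 11518 CPM. Their diet difference in KO ran from -3.07 to 1.94, with a median of 0.64, against 2.29 for this gene. Without KO HFD replicate 2, 3 of the 23 were higher than this gene, and without replicate 1 or replicate 3 none was. In WT their diet difference ran from -1.15 to 2.49, with a median of 0.44, against -0.29 for this gene. On the normal diet their KO minus WT difference ran from -0.90 to 0.50, against -1.05. The choice of the gene for its abundance and its diet differences sets its place among the 23 as well.

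The spread between replicates was set beside that of the same 23 genes. In KO HFD the high values that make up the group mean also make up the spread, so it is not independent of the choice of the gene. Within KO HFD its SD was 1.10 on the log2 CPM scale, and 3 of the 23 genes of like abundance had a larger one. Their median SD in that group, 0.61, was also high, against 0.26 in WT ND, 0.12 in KO ND and 0.14 in WT HFD. The large spread in KO HFD was therefore shared by many abundant genes. In WT ND the SD of this gene was 0.47, with 2 of the 23 larger. In WT HFD it was 0.02, and 22 of the 23 genes had a larger SD. In KO ND it was 0.13, near the median. The dispersion estimated for this gene over all groups corresponded to a biological coefficient of variation of 0.333, against 0.203 on the trend at its abundance.

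**Figure D3:**
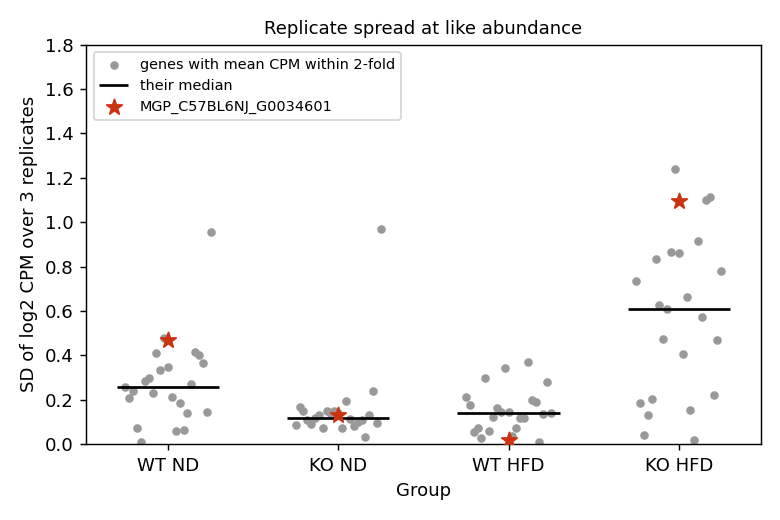
SD of log2 CPM over the 3 replicates (vertical axis) in each group (horizontal axis) for the 23 genes of like abundance (grey, median as a line) and for MGP_C57BL6NJ_G0034601 (star). The star is at 1.10 in KO HFD, among the highest, and at 0.02 in WT HFD, among the lowest.

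The split among KO HFD libraries followed their state on a wider measure of the diet response. In WT, edgeR's quasi-likelihood test with Benjamini-Hochberg adjustment called 2704 genes (19.5% of those tested) higher and 2972 (21.5%) lower on HFD at an adjusted p under 0.05. With libraries scaled by total counts alone these numbers were 1495 and 4920. Without the gene described here, those higher on HFD held 31.4% to 35.6% of the counts in WT ND libraries, 33.7% to 34.8% in KO ND and 50.8% to 54.7% in WT HFD. They were called from these same WT libraries, so the gap between WT ND and WT HFD is set by the choice. A share of counts also gives abundant genes more weight. In KO HFD the genes higher on HFD held 54.3% in replicate 1, 36.9% in replicate 2 and 42.7% in replicate 3. Those lower on HFD held 7.48%, 12.5% and 10.4% in KO HFD replicates 1, 2 and 3. They held 7.42% to 8.92% in WT HFD, 17.7% to 19.3% in WT ND and 18.3% to 18.6% in KO ND. By this measure KO HFD replicates 2 and 3 lay between the ND and the WT HFD libraries. The KO HFD library with the WT level of MGP_C57BL6NJ_G0034601 was thus also the library with a WT HFD share of diet-response genes. The library with the highest level of the gene had the lowest share of genes higher on HFD in that group. With the 1495 genes called higher under total-count scaling, the shares were 33.6%, 20.2% and 25.3% in KO HFD replicates 1, 2 and 3. In WT HFD they were 28.3% to 33.6%. The order within KO HFD was the same.

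The same inverse order held in WT ND, where shares of 35.6%, 32.8% and 31.4% went with 4192, 6159 and 7990 CPM, although with the 1495 genes replicates 2 and 3 had nearly equal shares of 15.3% and 15.4%. In KO ND and WT HFD, where the gene varied little, the order ran the other way. For example, the KO ND library with the lowest share, 33.7%, also had the lowest level, 2664 CPM. Between groups the level did not follow the share either: KO ND and WT ND had like shares and differed 2.07-fold in the gene. The part that the state of the single libraries had in the KO HFD level was not tested.

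**Figure D4:**
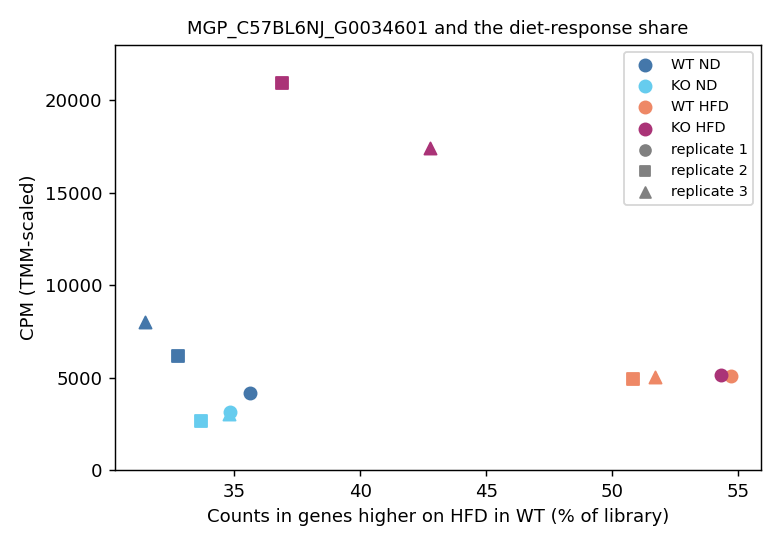
Percentage of library counts in genes higher on HFD in WT (horizontal axis) and level of MGP_C57BL6NJ_G0034601 in CPM (vertical axis), 1 point per library, coloured by group with marker shapes for replicates. KO HFD replicate 1, at 54.3%, lies with the WT HFD libraries, while KO HFD replicates 2 and 3 lie at 36.9% and 42.7% with the highest levels.

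The gap between KO HFD replicates 2 and 3 and the other libraries was also counted across genes. For this gene it was 2.18-fold. Among the 7917 genes that averaged 10 CPM or more, 464 had KO HFD replicates 2 and 3 both above all 10 other libraries, and 286 had both below. A gap of at least 2-fold above was found in 19 genes (0.240%), this gene included, and a gap of at least 2-fold below in 2 genes. Of the 116 genes that averaged 1000 CPM or more, 3 had the 2-fold gap above, this gene included. That is a larger share than among all 7917, but the mean CPM used for these levels includes KO HFD replicates 2 and 3. High values there help a gene to pass the 1000 CPM level. This gene was also picked for its abundance and its KO diet difference, so the larger share is no finding. This count was made after the values had been seen. The gene was picked for a rise that these libraries carry, so its place among the 19 describes the choice.

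Likeness to the profile was measured over the 12 libraries as the root mean square difference in log2 CPM after subtracting each gene's own mean. Of 7790 annotated genes above the same level, 1 was within 0.25 and 27 were within 0.5, where the median gene was at 0.93. A gene with the same level in all libraries would be at 0.89, so the median is near that of an unchanging gene. All points share the same libraries, so the measure also takes up whatever sets single libraries apart. With each library left out in turn, the 3 genes named next were all found again in 1 of 12 cases, 2 of them in 10 and 1 of them in 1, so the choice of these 3 from the similar genes is not firm. They have identifiers only, and nothing is known here of their function.

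The most similar gene was MGP_C57BL6NJ_G0028785, at a difference of 0.21. It averaged 743 ± 230 CPM in WT ND, 409 ± 32.7 CPM in KO ND and 529 ± 24.5 CPM in WT HFD (SD, 3 libraries each). Its KO HFD libraries had 460, 2194 and 2174 CPM in replicates 1, 2 and 3, so here replicate 1 was below all 3 WT HFD libraries. The fitted diet difference of MGP_C57BL6NJ_G0028785 was 1.98 (SE 0.47) in KO, or 2.42 (SE 0.20) without KO HFD replicate 1, and -0.49 (SE 0.45) in WT.

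MGP_C57BL6NJ_G0032752 came next, at 0.27. Its group means were 602 ± 236 CPM in WT ND, 233 ± 16.9 CPM in KO ND and 341 ± 37.1 CPM in WT HFD (SD, 3 libraries each). In KO HFD it had 530, 1321 and 1158 CPM, and replicate 1 was above all 3 WT HFD libraries, unlike in the gene before. The fitted diet difference of MGP_C57BL6NJ_G0032752 was 2.11 (SE 0.34) in KO, or 2.42 (SE 0.27) without KO HFD replicate 1, and -0.82 (SE 0.33) in WT.

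MGP_C57BL6NJ_G0020445, at 0.29, had 264 ± 75.0 CPM in WT ND, 192 ± 6.14 CPM in KO ND and 255 ± 8.49 CPM in WT HFD (SD, 3 libraries each). Its KO HFD libraries had 230, 771 and 662 CPM. All 3 similar genes had high values in KO HFD replicates 2 and 3. In 2 of them the gap to all other libraries was at least 2-fold, as in MGP_C57BL6NJ_G0034601. All 3 were also alike in WT ND, where replicate 1 was the lowest library of each. The genes were picked for likeness over these same 12 libraries, so these shared features describe the choice. Their mean levels, 317 to 823 CPM, were far below the 7148 CPM of MGP_C57BL6NJ_G0034601; CPM are not scaled for gene length.

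The mirror image of the profile was matched less closely. MGP_C57BL6NJ_G0020312, at 0.35, averaged 13.7 ± 2.38 CPM in WT ND, 24.2 ± 4.45 CPM in KO ND and 18.6 ± 4.03 CPM in WT HFD (SD, 3 libraries each), and had 13.1, 6.40 and 6.89 CPM in the KO HFD libraries. Its group mean was highest in KO ND, where that of MGP_C57BL6NJ_G0034601 was lowest. However, its lowest KO ND library, at 19.5 CPM, was below its highest WT HFD library, at 22.2 CPM. Its lowest values were in KO HFD replicates 2 and 3. Picking by the mirror image favours such values. MGP_C57BL6NJ_G0020588, at 0.39, averaged 338 ± 55.2 CPM in WT ND, 438 ± 39.1 CPM in KO ND and 274 ± 42.6 CPM in WT HFD (SD, 3 libraries each). In KO HFD it had 266, 113 and 150 CPM, and replicate 1 lay within the range of the WT HFD libraries while replicates 2 and 3 lay below it.

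**Figure D5:**
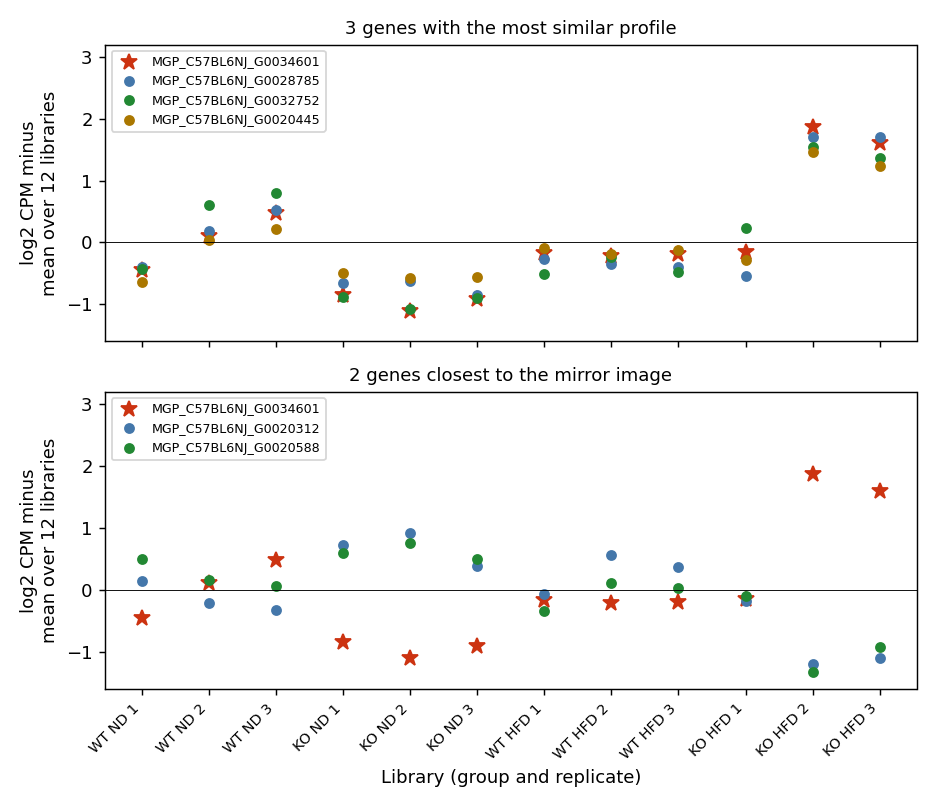
log2 CPM minus each gene's mean over the 12 libraries (vertical axis) by library (horizontal axis) for MGP_C57BL6NJ_G0034601 (star) with the 3 most similar genes (upper panel) and the 2 genes closest to its mirror image (lower panel). In KO HFD replicates 2 and 3 the star is at 1.87 and 1.60 and the similar genes lie between 1.24 and 1.71.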

How the data were processed

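Bulk liver RNA of 12 libraries was prepared with TRIzol and the NEBNext Ultra RNA kit, per the labels' protocols. The authors deposited raw read counts per gene; HISAT2 2.0.5, featureCounts 1.5.0-p3 and build mm39 are named in the submitters' processing notes. The identifiers belong to a C57BL/6NJ annotation (41096 rows, plus 1458 unannotated loci), so it is unsure which build was counted on. The kit does not mark strand, so overlapping or antisense genes cannot be told apart, and reads shared with near-identical copies are uncertain.

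Genes were kept by filterByExpr and fitted with edgeR 4.0.16 (R 4.3.3; TMM factors, quasi-likelihood, robust, 4 group means over 12 libraries). Log CPM used a prior count of 2. Replicates were compared for duplicates (chi-square per degree of freedom 8.04 to 165, so none). Same-numbered libraries were not treated as pairs. The steps were tested on simulated counts. Replicates are separate samples by label only, so their spread may be technical in part.

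The gene, the measures and the alternatives were chosen with earlier results of these data known. The rule for named genes took MGP_C57BL6NJ_G0034601, the gene absent from KO, the 3 annotated genes most similar in profile and the 2 closest to its mirror image. Lists of lipid, inflammasome, acute phase and cell type marker genes, and the level of Nlrp6, were not analysed here because no identifier matched a symbol.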

Additional observations from a re-analysis of the deposited data

How the results depend on the processing

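The 5 fitted differences of MGP_C57BL6NJ_G0034601 kept their sign under all alternatives run, and none moved by more than the larger replicate SD of the groups compared. For comparisons with KO HFD that SD was 1.10 on the log2 scale, because its libraries were split. Leaving out a single library could hardly move a value that far, so the SD is no strict limit there. Leaving out each library in turn gave 1.92 to 2.70 for the KO diet difference, -0.50 to -0.05 for WT, 2.21 to 2.98 for KO minus WT in the diet difference, 1.17 to 1.94 for KO minus WT on HFD and -1.26 to -0.81 on ND. The other settings (DESeq2 1.42.0 and its size factors, total counts, no filter, without the 10 most abundant genes in the scaling, without unannotated loci, only the groups compared) and the replicate block gave 2.12 to 2.30, -0.58 to -0.22, 2.38 to 2.70, 1.41 to 1.63 and -1.07 to -0.97. With the replicate number as a block the 5 values were 2.16, -0.22, 2.38, 1.41 and -0.97. The labels do not say that a number marks shared animals or days. After subtracting each group's mean log2 CPM per gene, 11 of 18 same-numbered pairs had a correlation over 0.1 (-0.0763 to 0.406). By the same measure, 3 of 12 libraries correlated best with their own number in every other group. Whether same-numbered libraries share a source of variation was not tested.

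KO HFD replicate 1 stayed above all WT HFD libraries and below the highest WT ND library under all 4 scalings tried, a check chosen after seeing the data. Genes higher on HFD in WT numbered 2704, and 1495 when libraries were scaled by total counts alone; leaving out each library gave 2047 to 2961. These alternatives, the shares under total counts and the places of the gene without single KO HFD libraries were also chosen after seeing the data. Of the 3 most similar genes, between 1 and 3 were found again with a library left out (2 in 10 of 12 cases, 1 without KO ND replicate 3, all 3 without KO HFD replicate 3), and all 3 under the other 4 settings. Among genes within 1.5-fold in mean level, the percentile of its replicate spread in WT HFD was 6.67 against 4.35 within 2-fold. Depth did not limit these values; 3 libraries a group did.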
